A study of Mus musculus with 10 samples.

Results

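The transcriptome of the normal prepubertal mouse testis was described from the 5 control arrays of a series of 10. The members were all arrays whose titles name them as controls, numbered 1 to 5, and each array held RNA of 1 pool. A pool combined 1 testis from each of 3 littermate mice aged 10 days and was read on 1 array. Whether the 5 pools came from different litters is not stated, so the spread given is that between pools. Of the 22690 probe sets on the array, 64 array controls were left out and 22626 were analysed. They named 12393 genes through 20380 probe sets that list a single gene.

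The testis makes steroid hormones and sperm in separate compartments. Sertoli cells form the wall of the seminiferous tubule and nurse the germ cells, peritubular myoid cells surround the tubule, and Leydig cells and macrophages lie in the interstitium between tubules. In the mouse, germ cells enter meiosis for the first time at about this age, so that spermatogonia and the first spermatocytes are present while spermatids are not. Known markers of each cell type can therefore be read against the stage of the first spermatogenic wave.

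The other 5 arrays of the series came from SCARKO mice, in which the response of Sertoli cells to androgen is removed, and are not described here. The control mice carried AMHCre, a Cre transgene that uses the promoter of the Sertoli cell gene for anti-Müllerian hormone. Control animals were thus transgenic mice and not wild-type mice. The labels conflict for 4 of the 5 pools: pools 1 to 4 are titled as controls but described as SCARKO, while for pool 5 both labels say control. The titles were used. Values of pool 5 alone are therefore given beside some of the main results. For example, Rhox5, a homeobox gene that Sertoli cells transcribe in response to androgen, had a signal of 212.1 in pool 5, against 86.6 to 241.4 in the other 4 pools. For each list of cell type markers, the median percentile rank among all genes in pool 5 alone was set against that of all pools. The largest difference was 5.63 percentile points, for the epididymis list, and the median difference was 1.57.

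Signals were intensities on a linear scale that gave every array the same trimmed mean of 100. A signal reports how brightly a probe set hybridised, and probe sets differ in how well they bind, so an order between genes is an order of signals and not of molecules. The arrays were alike in overall quality measures. Median signal ranged from 36.40 to 37.00, between 30.48% and 30.85% of probe sets had a signal of at least 100, and the ratio of 3′ to 5′ signal ranged from 0.611 to 0.64 for Gapdh and from 1.21 to 1.30 for Actb. Pool 5 had the highest Actb ratio. Each gene was represented by its brightest probe set.

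Over the mean of the 5 pools, 4490 genes (36.23%) had a signal under 20 and 3464 (27.95%) lay between 20 and 100. A further 4253 genes (34.32%) lay between 100 and 1000, and 186 (1.5%) reached 1000 or more. The median gene had a signal of 49.48. The assignment was stable between pools: 10868 genes (87.69%) were in the same band in all 5 pools, 4025 (32.48%) were at 100 or more in every pool, and 4147 (33.46%) were under 20 in every pool. In pool 5 alone, 35.58% of genes reached 100, against 35.82% for the mean of all pools.

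The brightest genes were those of the protein synthesis machinery. Eef1a1, the elongation factor that delivers aminoacyl-tRNA to the ribosome, had the highest mean signal, at 2938 ± 209.8 (SD, n = 5). Its values in pools 1 to 5 were 3305, 2882.4, 2799.5, 2894.2 and 2807. Genes for ribosomal proteins took 16 of the 20 highest places and 32 of the 100 highest, led by Rps29 (2930 ± 226.3), Rplp2 (2873 ± 236.9) and Rps3a1 (2785 ± 227.1). The other 4 genes among the first 20 were Eef1a1, Clu, Tpt1 (2578 ± 193.9) and Actb, the cytoplasmic beta-actin gene (2291 ± 188.2). Some of these places rest on the choice of the brightest probe set. With the median over a gene's probe sets, the signals of Tpt1 and Actb were 57.78 and 497.7. Those of the ribosomal protein genes Rpl41, Rpl13a and Rps10 were 197.2, 1047 and 1597, against 2499, 2530 and 2299 with the brightest. Genes read by a single probe set, such as Eef1a1 and Rplp2, kept their signals. Between pools, 15 genes were among the 20 brightest in every one. Of the 20 brightest genes, 9 were read by probe sets whose "x" suffix marks probes shared with other sequences, against 3.65% of all genes, and large families with near-identical copies such as the ribosomal protein genes are uncertain for that reason.

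The signal was not concentrated in a few genes. The 20 genes of highest mean signal over the pools held between 2.80% and 3.29% of the summed signal of all genes in a pool. The 100 highest held between 10.47% and 11.57%, and the 1000 highest between 45.48% and 46.51%. The 48 genes named as ribosomal proteins of the large or small subunit had a median signal of 1742 and held 4.82%, 4.54%, 4.33%, 4.40% and 4.21% of the summed signal in pools 1 to 5. Pool 1 was highest and pool 5 lowest for these genes. For the list of 20 ribosomal protein genes, the range over pools on the log2 scale was 0.16 as deposited and 0.04 after quantile normalization.

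**Figure D1:**
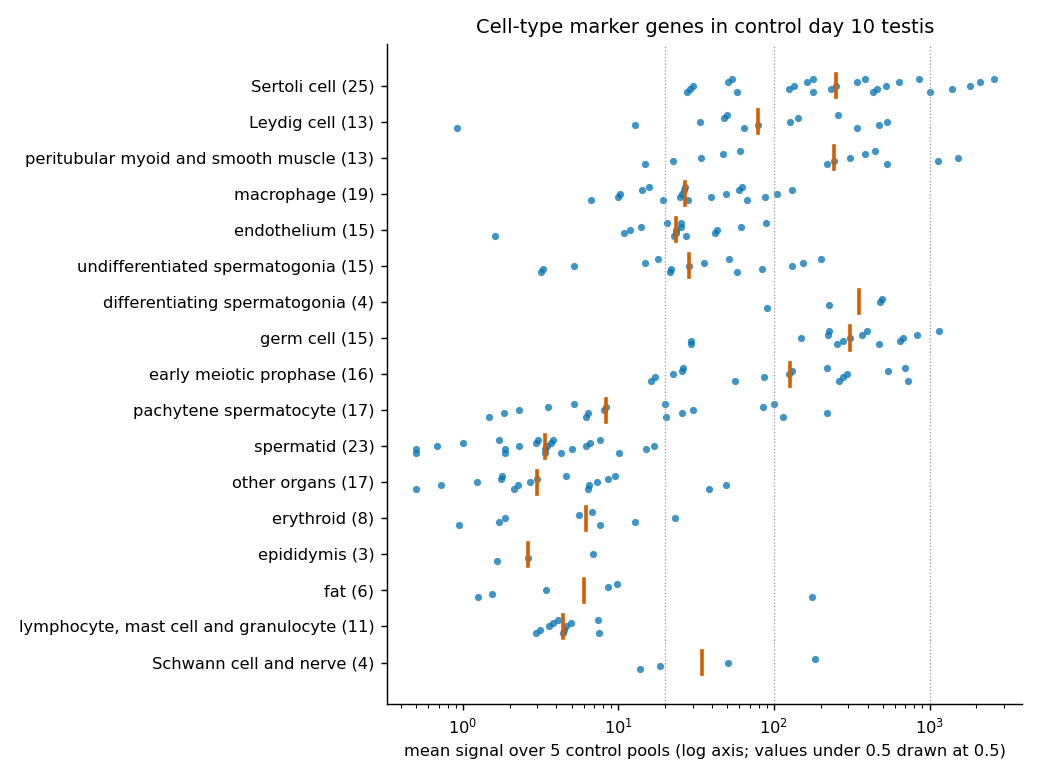
Mean signal over the 5 control pools (log axis) of every measured gene of 17 cell-type marker lists, 1 point per gene and the median as a vertical bar, with the number of measured genes in parentheses. Dotted lines mark signals of 20, 100 and 1000. Sertoli and germ cell markers lie mostly above 100, and all 23 spermatid genes lie under 20.

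Sertoli cell genes had high signals. Of 29 listed markers, 25 were measured, 19 had a mean signal of at least 100 and none was under 20. Their median signal was 250.9 and their median rank was the 84.78th percentile of all genes, and 85.72 in pool 5 alone. Clu, the secreted chaperone clusterin, ranked 5th of all genes with a signal of 2580 ± 72.42 (SD, n = 5). Its values in pools 1 to 5 were 2657.1, 2584.2, 2594.2, 2605.1 and 2460.9, an SD of log2 signal of 0.041. Aard, a Sertoli cell transcript named for its alanine and arginine rich domain, followed at 2100 ± 132.7. The cystatin-related genes Cst12 and Cst9 were at 1826 ± 40.14 and 1392 ± 48.42, and Inha, the alpha subunit of inhibin, at 1004 ± 78.87. These 5 genes were the members at or above 1000, and none of them differed by more than 1.25-fold between any 2 pools.

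Transcription factors that establish and maintain Sertoli cell identity were also well above the median gene. Dmrt1, which protects male fate in the postnatal testis, had a signal of 849.6 ± 32.54, although germ cells are also known to express it. Wt1 was at 250.9 ± 13.78, Sox9 at 162.8 ± 16.08, Gata4 at 135.2 ± 16.11 and Gata1 at 124.2 ± 17.57. Nr0b1, an orphan nuclear receptor gene, was at 231 ± 37.74. Among secreted and surface products, Kitl, the ligand of the spermatogonial receptor KIT, was at 634.8 ± 48.50, Cldn11, a tight junction claudin of the blood-testis barrier, at 527.1 ± 65.08 and Dhh, the hedgehog ligand that acts on Leydig and myoid cells, at 383 ± 79.60. Fshr, the receptor for follicle-stimulating hormone, was lower at 57.96 ± 6.19.

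The dimmest Sertoli cell markers were Amh, Etv5 and Gdnf. Amh, the gene for anti-Müllerian hormone and the source of the promoter in the Cre transgene, had signals of 39.5, 20, 44.9, 21.4 and 24.5 in pools 1 to 5, a mean of 30.06 ± 11.36. It was read by 1 probe set, and its signal lay below that of the median gene in every pool. The gene for its receptor, Amhr2, had a mean of 458.3 ± 70.16, with every pool at 396.5 or above. Etv5, a transcription factor needed for spermatogonial stem cell maintenance, was at 28.74 ± 1.57, and Gdnf, the growth factor that sustains those stem cells, at 27.52 ± 2.28.

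Genes that respond to androgen in Sertoli cells ranged from near the median gene (Tsx) to well above it (Eppin and Rhox5). Eppin, a protease inhibitor, had a mean of 342.1 ± 86.56, Rhox5 a mean of 178.2 ± 61.70 and Tsx, an X-linked gene of Sertoli and germ cells, a mean of 50.32 ± 18.50 (SD, n = 5). These 3 had the largest spread between pools among members with a mean of at least 50, as described further on.

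Leydig cell genes had middle signals. Of 19 listed markers 13 were measured, 6 of them at 100 or more, with a median signal of 78.76 and a median rank of the 58.65th percentile. Hsd3b1, which converts pregnenolone to progesterone, was the brightest at 530.3 ± 46.02, followed by the electron donor Fdx1 at 470.5 ± 64.05 and the lipoprotein receptor Scarb1 at 340.9 ± 39.64. Cyp17a1, whose enzyme carries the pathway on toward androgens, was at 258.7 ± 89.27, and Cyp11a1, the side-chain cleavage enzyme that starts it, at 143 ± 11.99. Star, which moves cholesterol into mitochondria, was at 78.76 ± 15.38. Hsd17b3, the enzyme for testosterone synthesis that marks adult-type Leydig cells, was at 33.34 ± 5.70. Mc2r, the receptor for adrenocorticotropic hormone, was lowest at 0.92 ± 0.785. The probe sets for Insl3 list a second gene, and so its level was not read.

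Most listed genes of peritubular myoid and smooth muscle cells had high signals. All 13 listed markers were measured and 8 were at 100 or more, with a median signal of 242.9 and a median rank of the 83.88th percentile. Acta2, smooth muscle actin, was at 1532 ± 110.6 and Myl9, a myosin light chain, at 1137 ± 63.73, while Mylk was at 534.4 ± 29.37 and Cald1 at 445.5 ± 21.98. Among the other members, Myh11 was at 218.4 ± 17.04, Cnn1 at 47.08 ± 2.68, Smtn at 33.80 ± 4.84, and Lmod1, the lowest, at 14.78 ± 4.88. When each gene was given the median of its probe sets in place of the brightest, the list's median rank was the 61.59th percentile.

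Markers of resident macrophages and vessels had mostly low signals. Of the 19 macrophage markers, 6 were under 20 and 2 were at 100 or more. The 2 were Csf1r, the receptor for macrophage colony-stimulating factor (130.1 ± 22.24), and Lyz2, lysozyme (104.5 ± 18.63). The mannose receptor gene Mrc1 was at 88.26 ± 12.84 and the protease gene Ctss at 67.12 ± 13.58, whereas Cd163 was lowest at 6.66 ± 2.17. No endothelial marker of 15 reached 100, and 4 were under 20. Sox18, a transcription factor of endothelial development, was highest at 88.94 ± 10.88, Eng was at 61.30 ± 12.10, and Tie1 was lowest at 1.62 ± 1.71. The median signals of these lists were 26.74 and 23.64, both below that of the median gene. In a whole testis, fewer cells of a type and less RNA per cell cannot be told apart.

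Markers of tissues that a testis should lack were close to the floor of the array. All 11 markers of lymphocytes, mast cells and granulocytes and all 3 measured markers of the epididymis, the duct attached to the testis, were under 20. The highest of the epididymal genes was Lcn8, at 6.92 ± 1.39. In the fat list 5 of 6 measured genes were under 20, including Fabp4 (9.84 ± 2.77) and Adipoq (3.44 ± 1.85), and the exception was Lpl, lipoprotein lipase, at 176.2 ± 27.69. Of 17 genes typical of other organs 15 were under 20. The exceptions were Actn3 (48.88 ± 8.31), a fast-muscle actinin, and Ins2 (38.06 ± 7.17), which encodes insulin, and the lowest was Camk2a at 0.38 ± 0.217. Of the 8 measured erythroid genes 7 were under 20, and Alas2, which starts haem synthesis in red cells, was at 23.02 ± 6.01. The probe sets that list several globin genes were left out, so the content of blood was not read from globin signal.

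Genes shared by many germ cell stages also had high signals. Of 16 listed, 15 were measured and 13 were at 100 or more, with a median signal of 308.3 and a median rank of the 88.45th percentile, or 85.81 in pool 5 alone. Dazl, an RNA-binding protein needed for germ cell development, was highest at 1146 ± 85.31 (SD, n = 5). Its values in pools 1 to 5 were 1142.8, 1191.4, 1218.3, 1174.1 and 1001. The chromatin remodeller Hells was at 833.8 ± 86.74, the ubiquitin hydrolase Uchl1 at 676.8 ± 33.99, the TFIID subunit Taf7l at 648.2 ± 45.37, and the RNA helicase Ddx4, a classical germ cell marker, at 471.1 ± 35.57. The lowest were Nr6a1 (29.26 ± 4.96) and Zfp42 (29.22 ± 1.66).

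Genes of differentiating spermatogonia had high signals and most genes of undifferentiated spermatogonia had low ones. The 4 measured genes of differentiating spermatogonia were Stra8, the retinoic acid target that marks the entry into differentiation and meiosis (498.2 ± 72.04), Ccnd2 (481.7 ± 56.88), the receptor gene Kit (225.9 ± 22.38) and Dmrtb1, which coordinates the switch from mitosis to meiosis (90.66 ± 18.15). Of the 15 measured genes of undifferentiated spermatogonia, 3 were at 100 or more: Sall4 at 200.4 ± 13.29, Foxo1 at 152.9 ± 14.68 and Lin28a at 131.2 ± 26.29. Id4, a marker of stem cells, was at 84.10 ± 8.80, Zbtb16 at 51.30 ± 4.30 and Gfra1, the receptor of the growth factor that Gdnf encodes, at 21.74 ± 4.70. Pax7 (3.26 ± 1.25) and Lhx1 (3.18 ± 0.876) were lowest.

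Genes of the first meiotic prophase were measured at middle to high signals. Of 28 listed, 16 were measured and 9 were at 100 or more, with a median signal of 126.9 and a median rank of the 69.01st percentile, or 64.64 in pool 5 alone. Components of the synaptonemal complex, which joins homologous chromosomes, were brightest: Sycp3 at 730.4 ± 125.9, Syce2 at 698.8 ± 100.2, Sycp1 at 296.1 ± 80.97 and Tex12 at 263.3 ± 61.79. Tex15, needed for double-strand break repair, was at 537.2 ± 55.48, and the meiotic cohesin genes Stag3 and Smc1b were at 278 ± 46.65 and 219 ± 38.68. Hormad1, which marks unsynapsed axes, was at 129.8 ± 48.83, and the recombinase gene Dmc1 at 124.1 ± 35.73. Psmc3ip, a cofactor of that recombinase, was at 86.10 ± 6.21 and the cohesin gene Rec8 at 56.28 ± 14.54. Prdm9 (25.86 ± 9.24), which places recombination hotspots, Msh5 (25.48 ± 8.07), Spo11 (22.60 ± 8.67), which makes the breaks, Mnd1 (17.20 ± 3.57) and Msh4 (16.26 ± 7.14) were lowest.

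The promoters of these meiotic genes were examined for shared letters. Whether such letters have a part in the variation between pools, described further on, was not tested. RefSeq promoter windows were available for 14 of the 16 genes, on the mouse build GRCm38.p6. The E-box CACGTG, which reads the same on both strands and is the binding site of basic helix-loop-helix factors such as MAX, was present within 250 bases before the start of 6 of the 14 genes (42.86%). It was present in 909 of 9887 measured genes with a window (9.19%) and in 1854 of all 27025 (6.86%). The motif CNCCTCAG, bound by STRA8 with MEIOSIN, was present on either strand in 3 of the 14 genes (21.43%), against 855 of 9887 (8.65%). Matches of these 2 motifs cannot overlap. The E-box was chosen after the windows had been seen, so its share in these genes cannot serve as a test. A match is a description of letters and not a site of binding. The 120 bases before the start are shown for 4 of the genes with the E-box, and for Dmc1, which has none, with the E-box in capitals. They lie at chr10:88459467-88459586 on the plus strand (Sycp3), chr3:102936101-102936220 on the minus strand (Sycp1), chr3:95559557-95559676 on the plus strand (Hormad1), chr9:50561269-50561388 on the minus strand (Tex12) and chr15:79605110-79605229 on the minus strand (Dmc1).
Sycp3: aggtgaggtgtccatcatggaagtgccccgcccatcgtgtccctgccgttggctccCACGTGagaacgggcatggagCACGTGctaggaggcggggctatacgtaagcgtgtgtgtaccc
Sycp1: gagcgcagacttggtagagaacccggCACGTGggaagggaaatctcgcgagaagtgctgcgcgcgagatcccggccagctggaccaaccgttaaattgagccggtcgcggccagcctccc
Hormad1: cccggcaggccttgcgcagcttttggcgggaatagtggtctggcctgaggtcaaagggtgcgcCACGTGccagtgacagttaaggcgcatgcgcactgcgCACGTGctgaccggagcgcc
Tex12: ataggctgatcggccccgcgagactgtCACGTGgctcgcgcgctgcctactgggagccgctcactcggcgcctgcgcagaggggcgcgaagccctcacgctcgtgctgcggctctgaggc
Dmc1: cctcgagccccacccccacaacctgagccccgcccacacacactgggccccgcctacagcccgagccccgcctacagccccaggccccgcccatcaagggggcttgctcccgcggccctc
The E-box began 64 and 43 bases before the start of Sycp3, 94 before that of Sycp1, 57 and 20 before that of Hormad1 and 93 before that of Tex12. The other 2 genes with it were Stag3 and Syce2, and Syce2 had it before only 1 of its listed starts.

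Genes of later germ cells marked the end point of the wave at this age. Of 17 measured genes of pachytene spermatocytes, 10 were under 20 and 3 were at 100 or more. In pool 5 alone 12 were under 20 and 1 was at 100 or more. The 3 were Tbpl1 (218.1 ± 10.86), a TATA-binding protein relative, the dipeptidase gene Dpep3 (115.2 ± 36.37) and Hspa2 (100.6 ± 12.11), the chaperone of the synaptonemal complex. The lactate dehydrogenase Ldhc was at 5.16 ± 2.84 and Pgk2, the glycolytic enzyme of late spermatocytes and spermatids, at 1.48 ± 1.27. All 23 measured spermatid genes were under 20, and their median was 3.36. The highest was Tcp11 at 17.04 ± 4.25. The protamine genes Prm1 and Prm2 were at 3.82 ± 2.53 and 3.36 ± 2.74, and the transition protein genes Tnp1 and Tnp2 at 6.16 ± 1.24 and 0.36 ± 0.219. The list of genes typical of other organs had a median of 3.00.

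Genes of the piRNA pathway, which silences transposons in germ cells, were measured for 7 of 17 listed. Piwil2 was at 266.2 ± 24.04, Asz1 at 157.9 ± 21.71 and Tdrd7 at 125.3 ± 16.46. Piwil1, which acts from the pachytene stage, was at 11.88 ± 2.27, and Dnmt3l, the methylation cofactor of fetal germ cells, was lowest at 6.90 ± 2.07.

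Proliferation genes were bright. Of 29 measured cell cycle genes, 25 were at 100 or more and the median was 229. Pcna, the sliding clamp of replication, was at 1167 ± 90.62, the helicase subunit Mcm7 at 872.6 ± 44.27, Cdc20 at 696.3 ± 31.63 and Mcm6 at 559.7 ± 27.84. Mki67, a standard marker of cycling cells, was at 229 ± 8.45. Tyms, thymidylate synthase, was lowest at 8.10 ± 1.53.

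Extracellular matrix genes had high signals. Of 31 measured, 27 were at 100 or more, with a median signal of 358.6 and a median rank of the 90.52nd percentile. The fibrillar collagen genes Col3a1 and Col1a2 were at 1891 ± 121.0 and 1381 ± 179.7, the matrix glycoprotein gene Sparc at 1706 ± 235.1, and the proteoglycan gene Dcn at 812.4 ± 50.26. Fbln2 was lowest at 31.52 ± 6.86. Among imprinted growth genes, Gnas was at 1139 ± 99.17, Plagl1 at 750.3 ± 134.2, Ndn at 466.6 ± 90.84 and Dlk1, a marker of fetal and progenitor Leydig cells, at 425.2 ± 69.55, while Snrpn was lowest at 1.38 ± 1.09.

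Energy genes were bright as a group. All 28 measured genes of oxidative phosphorylation were at 100 or more, with a median signal of 674.7 and a median rank of the 96.64th percentile. Cycs, somatic cytochrome c, was highest at 2130 ± 85.96 and Sdhd lowest at 286.9 ± 11.69. Of the 16 measured genes of glycolysis and lactate supply, by which Sertoli cells feed germ cells, 14 were at 100 or more. Ldhb was highest at 912.5 ± 78.90, Aldoa was at 776.9 ± 93.34 and the lactate carrier Slc16a1 at 558.2 ± 18.37, whereas Pfkp was lowest at 22.32 ± 5.48. Chaperone genes had a median of 683.6, led by Hspa8 (2026 ± 110.4) and Hsp90aa1 (1614 ± 73.37), and Hspa1l, a testis-specific chaperone of spermatids, was lowest at 4.54 ± 2.38.

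Signalling and barrier genes covered a wide range of signals. The gap junction gene Gja1 was at 1104 ± 48.63, Ctnnb1, beta-catenin, at 1654 ± 98.11 and Tjp1, a tight junction scaffold, at 435.5 ± 17.38, while Cldn5 was at 36.68 ± 8.97 and Cldn3, an androgen-regulated claudin, at 11 ± 2.63. In the retinoid list, Aldh1a1, which makes retinoic acid, was at 1325 ± 94.98 and Crabp1, a retinoic acid binding protein, at 303.2 ± 20.60, whereas Lrat was at 2.44 ± 0.961 and Rxrg lowest at 1.20 ± 0.686. Among niche ligands and receptors, Igf1 was at 573.1 ± 67.14, Pdgfra at 516 ± 28.41, the hedgehog receptor Ptch1 at 479.3 ± 27.84 and Lif lowest at 6.52 ± 1.42. In the cholesterol synthesis list, 10 of 17 measured genes were at 100 or more, led by Hmgcs1 at 934.9 ± 41.48.

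By chromosome, 157 of 402 X-linked genes (39.05%) reached a signal of 100, against 4274 of 11957 autosomal genes (35.74%). Among 7 measured Y-linked genes of the list, Uba1y, a ubiquitin-activating enzyme of spermatogonia, was at 686.1 ± 42.56 and Eif2s3y, a translation initiation factor needed for spermatogonial proliferation, at 234.2 ± 19.69. Sry, the sex-determining gene of the fetal gonad, was lowest at 3.46 ± 1.78.

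The signals of the 5 pools were closely correlated. Across 10076 probe sets with a mean signal of at least 50, Pearson's correlation of log2 signals between pools ranged from 0.980 to 0.987 and Spearman's from 0.973 to 0.984. Probe sets are not independent replicates, and these values describe the arrays. Pool 4 and pool 5 were the most alike, and pool 5 correlated with the others at 0.980 to 0.987. The median SD of log2 signal over the 5 pools was 0.118 for 6174 genes with a mean of at least 50, and the 90th percentile of their SD was 0.222. Only 56 of these genes (0.907%) differed by 2-fold or more between their highest and lowest pool.

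**Figure D2:**
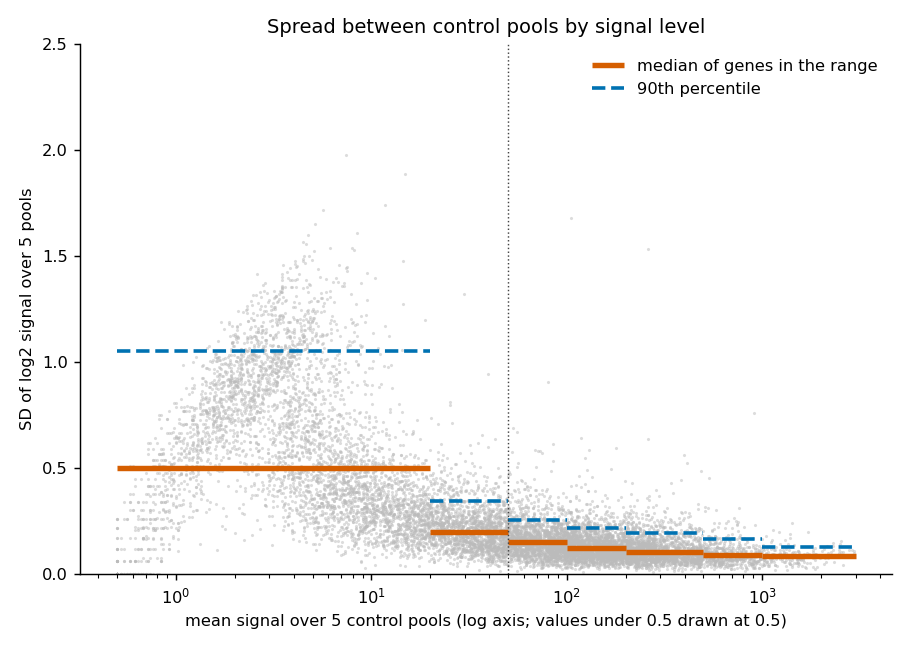
SD of log2 signal over the 5 control pools against mean signal (log axis), 1 grey point per gene, with the median (solid) and 90th percentile (dashed) of genes in each range of signal. The median SD falls from 0.501 for genes under 20 to 0.084 for genes at 1000 or more, and the dotted line marks the minimum of 50 used for spread.

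The spread depended strongly on the level of signal. The median SD was 0.501 for the 4490 genes under 20, 0.20 from 20 to 50, 0.151 from 50 to 100, 0.122 from 100 to 200, 0.102 from 200 to 500, 0.088 from 500 to 1000 and 0.084 for the 186 genes at 1000 or more. Of the genes under 20, 60.78% differed by 2-fold or more between pools, and differences there carry little information. No gene at 1000 or more differed by 2-fold. The relative position of a pool was also read on all genes: pool 4 was least often the extreme one, being highest for 13.23% and lowest for 14.71% of genes, and pool 2 was most often lowest (23.91%).

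The 10 steadiest genes had mean signals from 55.44 (Eif2ak4) to 1339 (Ddx5). Cops8, a subunit of the COP9 signalosome, had signals of 272.9, 275.3, 278.2, 274.2 and 275.8 in pools 1 to 5, an SD of log2 signal of 0.010. Vasp, an actin regulator, was at 120.4 ± 0.997 and Galnt1, which starts mucin-type glycosylation, at 386.5 ± 3.76. The other genes of the 10 steadiest were Pdk3, Eif4h, Eif2ak4, Ndufs3, Dcaf4, Ddx5 and Rchy1, with SDs of log2 signal of at most 0.019.

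The 20 most variable genes came from several sources. The largest SD of log2 signal, 1.680, was that of Serpina3a, a serine protease inhibitor, with signals of 124.5, 17.7, 21.3, 232.8 and 126.4 in pools 1 to 5. Pools 2 and 3 were low and pool 4 was high. AY036118 had signals of 337.1, 359.0, 314.3, 261.5 and 29.7, so that pool 5 alone was low. ND5, a mitochondrially encoded subunit of complex I, had signals of 942.3, 944.7, 344.0, 866.0 and 1436.7, lowest in pool 3 and highest in pool 5. Prrc2a, an RNA-binding protein, had signals of 45.7, 48.5, 151.0, 117.6 and 36.9, and its next probe set was under 10 in every pool. Vnn1, a pantetheinase of the Sertoli cell lineage, had signals of 165.5, 173.2, 92.8, 59.1 and 101.6, highest in pool 2 and lowest in pool 4.

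Known testis genes were among the 20, namely the Sertoli cell gene Rhox5, the Leydig cell gene Cyp17a1, the meiotic gene Hormad1 and the germ cell surface gene Tex101. The remaining genes were Mpzl2, Gpd1, Mpnd, Rap2b, Olfml3, Zfp777, Macroh2a2, Pam, Cox15, Lsp1 and Lasp1, with mean signals between 52.56 for Macroh2a2 and 413.4 for Lasp1. Pool 4 was highest for 7 of the 20 and pool 5 lowest for 7. Among all 6174 genes, pool 4 was highest for 13.23% and pool 5 lowest for 21.33%.

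Some of these differences were not seen in the gene's next probe set. For Cox15, which makes haem A, the brightest probe set gave 60.4 in pool 1 and between 121.1 and 150.1 in pools 2 to 5, while the next gave 69.5, 75.5, 74.4, 68.6 and 80.6 in pools 1 to 5. For Rap2b, a small GTPase, the brightest had an SD of log2 signal of 0.583 and the next one of 0.150. For Lasp1, an actin-binding protein, the 9 probe sets were mixed. Its brightest gave 214.4, 435.9, 396.6, 553.4 and 466.7, and the fourth (174.0, 271.9, 223.7, 286.4 and 257.0) and the sixth (48.2, 100, 92.6, 149.2 and 104.2) were also lowest in pool 1 and highest in pool 4. The second was lowest in pool 1 and highest in pool 5, and the third, with an SD of log2 signal of 0.071, was highest in pool 1. Over all genes, 2156 had 2 probe sets with a mean signal of at least 50. Of the 10 among them with an SD of 0.4 or more in the brightest, 3 had such an SD in the next probe set too and 6 had an SD under 0.2 there. The deviations of the 2 probe sets correlated across genes at 0.30, 0.49, 0.46, 0.21 and 0.38 in pools 1 to 5.

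Levels depended on the probe set as well. For the 3292 genes with several probe sets and the brightest at 50 or more, the brightest was a median of 1.91-fold above the next and 3.73-fold above the dimmest. In 31.62% of these genes the brightest was at least 10-fold above the dimmest. For Myh11 the probe sets gave means of 218.4 and 1.74.

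**Figure D3:**
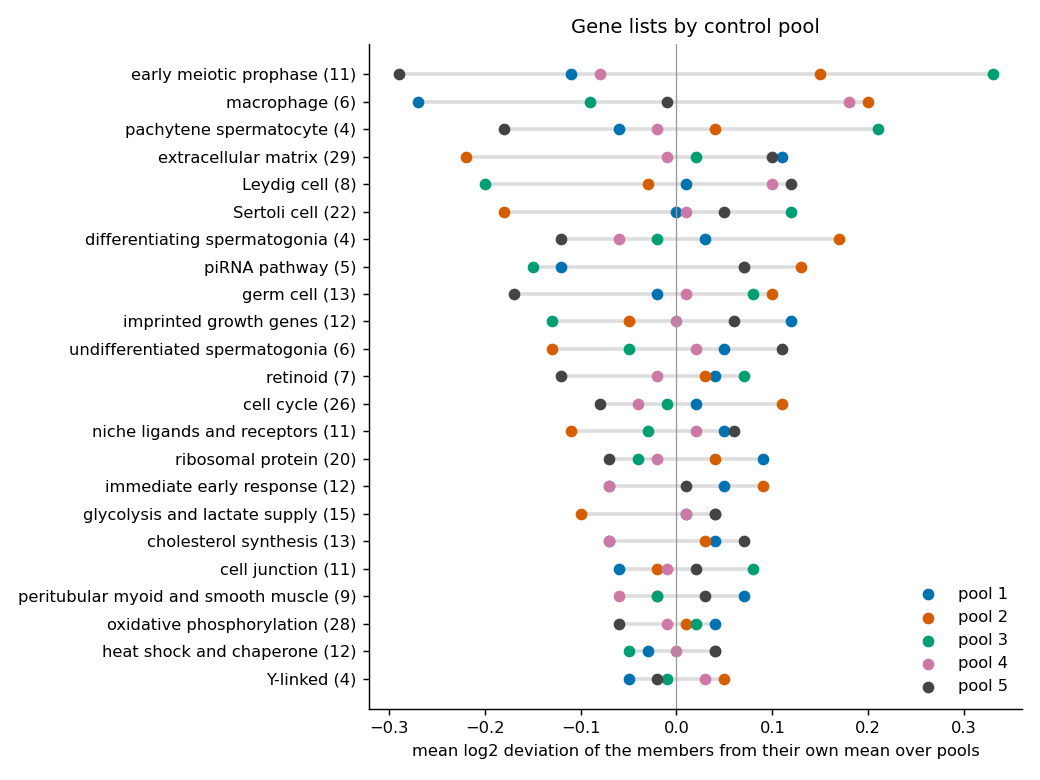
Mean deviation in log2 signal of the members of each gene list from their own mean over pools (horizontal axis), 1 point per control pool, for the 23 lists with at least 3 members at a mean signal of at least 50 (number in parentheses). Lists are ordered by their range over pools, from 0.62 for early meiotic prophase, where pool 3 is highest and pool 5 lowest, to 0.09 for Y-linked genes. The range also depends on the number and the signal of the members.

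The range over pools differed between gene lists. For each list, the log2 signal of each member with a mean of at least 50 was set against that gene's own mean over the 5 pools, and the deviations were averaged in each pool. The range also depends on how many members a list has and on their signal, so the order of lists is a description. For example, the median SD of log2 signal was 0.23 for the 6 macrophage genes used and 0.07 for the 28 oxidative phosphorylation genes. Early meiotic prophase genes had the widest range of the 23 lists, 0.62 on the log2 scale. Their mean deviation was -0.11, 0.15, 0.33, -0.08 and -0.29 in pools 1 to 5. All 11 members were above their own mean in pool 3 and all 11 were below it in pool 5. Among all 6174 genes, 51.99% were above their own mean in pool 3 and 50.10% in pool 5. The summed signal of the 11 genes was 3249, 3731, 4129, 3218 and 2769. Without pool 3, or without pool 5, the range was 0.44.

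The single meiotic genes differed in how closely they followed this order. Sycp3 had signals of 644.0, 845.0, 871.0, 712.2 and 579.8 in pools 1 to 5. Syce2 had signals of 696.1, 810.4, 765.5, 673.4 and 548.4. Both were high in pools 2 and 3 and lowest in pool 5. Dmc1 had signals of 111.6, 153.9, 167.6, 106.4 and 81.0, and a second Dmc1 probe set gave 44.8, 59.5, 81.5, 63.7 and 25.7, again highest in pool 3 and lowest in pool 5. Tex12 had signals of 230.4, 338.5, 310.9, 251.5 and 185.0. Sycp1 departed in part, with 314.8, 258.1, 427.9, 220.8 and 258.8, so that pool 3 was highest but pool 4 and not pool 5 was lowest. Hormad1 had signals of 69.1, 179.7, 179.5, 102.2 and 118.3, with pool 1 lowest. Psmc3ip varied least of the 11, between 78.9 and 94.8.

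**Figure D4:**
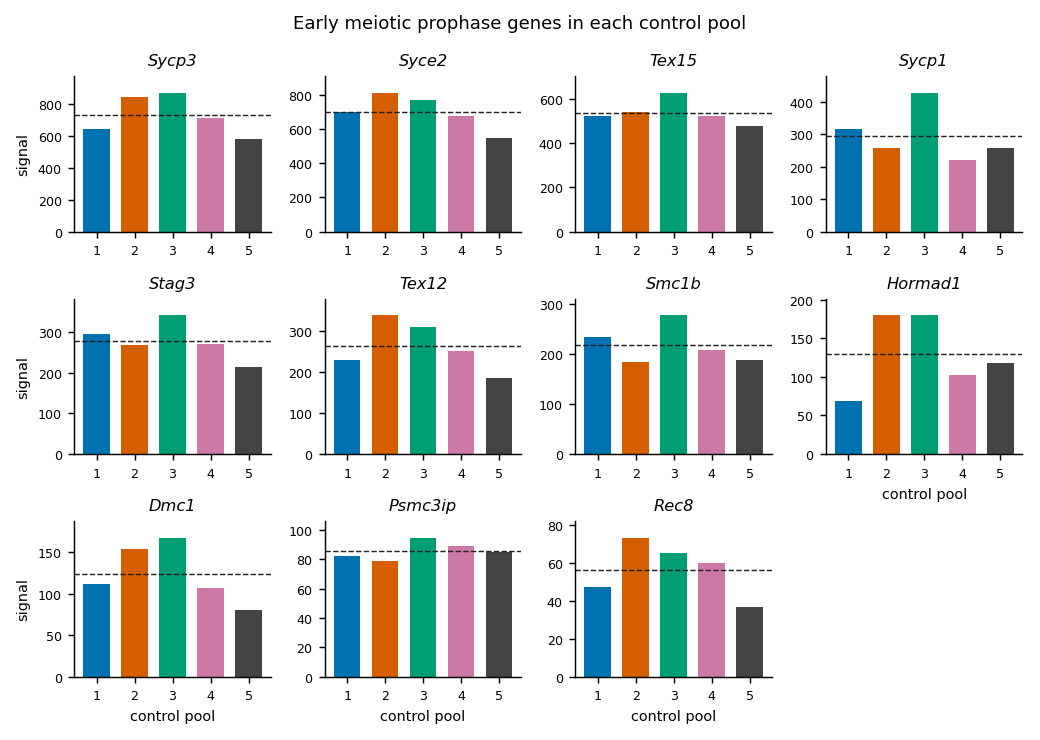
Signal (linear axis from 0) of the 11 early meiotic prophase genes with a mean signal of at least 50 in each control pool, with the mean of the 5 pools as a dashed line. Pool 3 is above the mean line for each gene and pool 5 below it, and Psmc3ip has the smallest spread.

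The means of the lists of genes shared by germ cell stages, of differentiating spermatogonia and of pachytene spermatocytes were also lowest in pool 5. This was not particular to germ cell lists. Pool 5 was also lowest for the retinoid, cell cycle, ribosomal protein and oxidative phosphorylation lists, at -0.12, -0.08, -0.07 and -0.06. For the 13 genes shared by germ cell stages the mean deviations were -0.02, 0.10, 0.08, 0.01 and -0.17, and 12 of the 13 were below their own mean in pool 5. The range was 0.26 with pool 5 and 0.11 without it. Tex101 was the most variable, with 338.1, 508.0, 580.2, 345.9 and 215.6 in pools 1 to 5. Dpep3, of the pachytene list, had signals of 110.5, 129.4, 168.1, 96.5 and 71.4, highest in pool 3 and lowest in pool 5 like Tex101. It was the only one of the 4 pachytene genes at a mean of 50 or more that was lowest in pool 5. Tbpl1 was highest there, at 231.3, while Hspa2 (90.2, 101.0, 121.1, 96.6 and 94.1) and Cyct, the testis cytochrome c (79.8, 79.9, 82.4, 104.8 and 80.9), were lowest in pool 1. Without pool 3 the range of that list was 0.22, against 0.38 with it. Stra8 had signals of 446.9, 604.9, 537.7, 469.0 and 432.4, highest in pool 2 and lowest in pool 5. The range of the list of differentiating spermatogonia was 0.29 with pool 2 and 0.16 without it. Of its 4 genes, 2 were below their own mean in pool 5, Dmrtb1 by -0.40 and Stra8 by -0.19. Ccnd2 and Kit were above theirs, by 0.07 and 0.03. The 5 genes of the piRNA pathway were lowest in pool 3, with mean deviations of -0.12, 0.13, -0.15, 0.07 and 0.07. Genes of undifferentiated spermatogonia did not follow either: their mean deviations were 0.05, -0.13, -0.05, 0.02 and 0.11, and pool 5 was highest and pool 2 lowest. Kit had signals of 206.3, 230.1, 204.1, 259.2 and 230.0, with pool 4 highest and pools 1 and 3 low. Pool 5 also had the highest ratio of 3′ to 5′ signal for Actb, 1.30 against 1.21 to 1.25 in the others. The part of this ratio in the low signals of pool 5 was not tested.

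Cell cycle genes moved within a narrower range. Their mean deviations were 0.02, 0.11, -0.01, -0.04 and -0.08 in pools 1 to 5, and 23 of 26 were above their own mean in pool 2 and 21 of 26 below it in pool 5. In all genes, 49.25% were above their own mean in pool 2. Bub1, a spindle checkpoint kinase, was the most variable at 340.6, 454.0, 435.5, 342.6 and 293.1, and Rrm2, a subunit of ribonucleotide reductase, followed at 273.7, 368.5, 320.3, 277.5 and 244.2. Both were highest in pool 2 and lowest in pool 5. Without pool 2 the range of the list was 0.10, against 0.19 with it.

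Pool 2 was low in the means of the extracellular matrix and Sertoli cell lists. The peritubular myoid and Leydig cell lists had mean deviations of -0.02 and -0.03 there. Extracellular matrix genes had mean deviations of 0.11, -0.22, 0.02, -0.01 and 0.10 in pools 1 to 5. In pool 2, 27 of 29 were below their own mean, 22 of them lowest there. Among all 6174 genes, 49.25% were above their own mean in pool 2 and 23.91% were lowest there. Col1a1 had signals of 582.0, 273.9, 517.5, 422.9 and 638.9, although its second probe set, at 113.9, 106.4, 86.9, 109.5 and 109.1, was not lowest in that pool. Col1a2 had signals of 1634.2, 1143.9, 1372.8, 1310.6 and 1442.5 and Nid1, the basement membrane protein nidogen, 399.9, 269.5, 345.0, 373.5 and 398.7. Pool 2 was lowest for all 3 genes by these probe sets. Without pool 2 the range of the list was 0.12, against 0.33 with it.

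The 22 Sertoli cell genes had mean deviations of 0.00, -0.18, 0.12, 0.01 and 0.05, and 16 were below their own mean in pool 2. Among all genes, 49.25% were above their own mean in that pool. The range of the Sertoli cell list was 0.31 with pool 2 and 0.13 without it. Rhox5 had signals of 146.4, 86.6, 241.4, 204.3 and 212.1 in pools 1 to 5. Eppin had signals of 340.1, 199.5, 421.8, 398.8 and 350.2. Both were lowest in pool 2 and highest in pool 3. Gpd1, the cytosolic glycerol-3-phosphate dehydrogenase, is no member of the list but was also lowest in pool 2, at 52.6, 23.2, 68.5, 71.7 and 62.5, and its second probe set gave 42.9, 18.5, 48.2, 39.3 and 42.4. Tsx had signals of 34.4, 38.5, 81.2, 51.7 and 45.8, with pool 3 high and pool 1 lowest. Dhh (507.6, 288.9, 390.9, 372.9 and 354.7) and Inhbb, the beta-B subunit of inhibin (527.7, 353.4, 427.5, 408.3 and 457.5), were lowest in pool 2 and highest in pool 1 by their brightest probe sets. The second probe set of Dhh (86.4, 70.1, 94.3, 73.9 and 89.7) was lowest in pool 2 but highest in pool 3, and that of Inhbb (93.3, 98.0, 111.2, 81.8 and 108.4) was lowest in pool 4 and highest in pool 3.

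The Sertoli cell genes did not all move. Wt1 had signals of 239.2, 233.2, 260.8, 257.8 and 263.7, a highest-to-lowest ratio of 1.13, and Cst12 and Clu had ratios of 1.05 and 1.08. Summed over the 22 genes, the signal was 14189, 13369, 14336, 13999 and 13892 in pools 1 to 5, since the brightest members were the steady ones. Pool 2 had the lowest ratio of 3′ to 5′ signal for Gapdh, 0.611 against 0.625 to 0.64 in the others, and its part in these values was not tested. Pool, litter and array cannot be told apart with 1 array per pool.

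**Figure D5:**
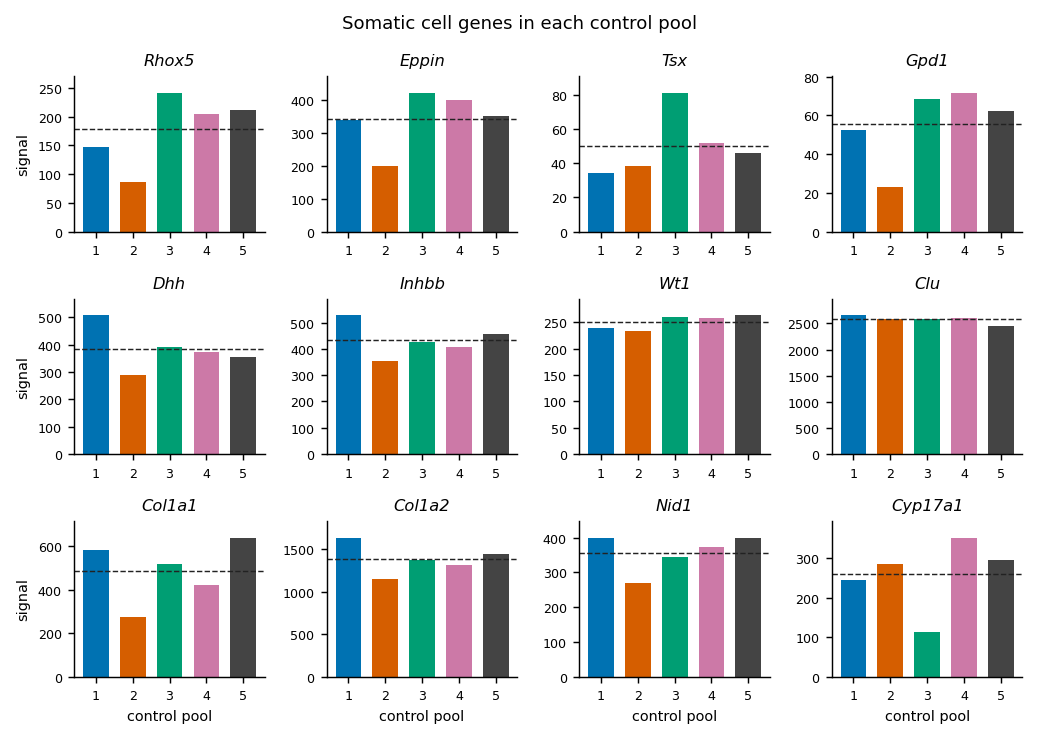
Signal (linear axis from 0) of 12 somatic cell genes in each control pool, with the mean of the 5 pools as a dashed line; the genes were chosen after their values were seen. By the brightest probe sets drawn, Rhox5, Eppin, Gpd1, Dhh, Inhbb, Col1a1, Col1a2 and Nid1 are lowest in pool 2, Cyp17a1 is lowest in pool 3, and Clu and Wt1 are nearly level.

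The mean of the Leydig cell list was lowest in pool 3. Mean deviations over its 8 members were 0.01, -0.03, -0.20, 0.10 and 0.12 in pools 1 to 5. In pool 3, 6 of 8 were below their own mean and 3 were at their lowest. Among all genes, 51.99% were above their own mean in pool 3 and 19.86% were lowest there. The list value rested largely on Cyp17a1, which deviated by -1.09 in pool 3. The other members deviated there by between -0.40 (Star) and 0.18 (Scarb1). Cyp17a1 had signals of 245.8, 286.2, 114.0, 351.7 and 295.7, so that pool 3 was lowest and the others ranged from 245.8 to 351.7. Star had signals of 72.9, 78.5, 58.8, 101.1 and 82.5, and its other 2 probe sets, at 59.0, 56.1, 30.2, 98.0 and 71 and at 47.1, 42.5, 26.4, 88.7 and 50.7, gave pool 3 as lowest and pool 4 as highest too. Hsd3b1 and Cyp11a1 did not follow: Hsd3b1 was at 481.3, 557.7, 522.3, 495.9 and 594.1 and Cyp11a1 at 126.1, 150.9, 134.7, 149.1 and 154.0, both lowest in pool 1. Scarb1 (376.1, 288.6, 383.2, 318.2 and 338.4) and Nr5a1, the steroidogenic factor gene (125.9, 108.6, 140.7, 132.7 and 128.4), went the other way by their brightest probe sets, highest in pool 3 and lowest in pool 2, while the next 2 probe sets of Scarb1 were highest in pool 5. Without pool 3 the range of the list was 0.19, against 0.32 with it, and with the median of each gene's probe sets it was 0.53.

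Macrophage genes were low in pool 1. The 6 members with a mean signal of at least 50 had mean deviations of -0.27, 0.20, -0.09, 0.18 and -0.01. All 6 were below their own mean in pool 1, where 53.01% of all genes were above theirs. Lyz2 had signals of 72.5, 115.4, 116.1, 115.0 and 103.6 and Ctss 47.0, 84.1, 63.3, 72.3 and 68.9, each lowest in pool 1. Csf1r had signals of 108.9, 145.4, 109.9, 159.7 and 126.8, with pools 1 and 3 low. The complement gene C1qa was lowest in pool 5, at 52.6, with pool 1 at 54.8. Without pool 1 the range was 0.33, against 0.47 with it.

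The remaining lists had ranges of 0.27 or less. The range over pools was 0.09 for Y-linked genes, 0.10 for oxidative phosphorylation and for chaperones, 0.13 for peritubular myoid genes, 0.14 for glycolysis, cell junction and cholesterol synthesis genes and 0.16 for ribosomal protein and immediate early genes. It was 0.17 for niche ligands and receptors, 0.19 for retinoid genes, 0.25 for imprinted growth genes and 0.27 for the piRNA pathway. Without pool 2 the glycolysis range was 0.03, without pool 3 the cell junction range was 0.08 and without pool 5 the oxidative phosphorylation range was 0.05. Fos, an immediate early gene that rises when tissue is handled, was at 43.4, 65.2, 46.4, 55.2 and 48.8, and Egr1 at 148.8, 148.8, 153.5, 162.8 and 166.7. Nr4a1 and Gadd45b, of the same list, varied more. Nr4a1 deviated in log2 signal by 0.41 in pool 2 and -0.56 in pool 3, and Gadd45b by 0.46 in pool 1 and -0.38 in pool 4. The deviations of Egr1 lay between -0.07 and 0.10. Hspb1, a small heat shock protein, was the most variable chaperone, at 712.7, 961.0, 622.9, 645.1 and 622.6, with pool 2 high. Ndn, an imprinted gene, was at 511.6, 519.3, 305.0, 503.4 and 493.8, with pool 3 low.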

How the data were processed

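The data were 1-colour Affymetrix arrays of whole-testis RNA, and each value is the intensity of 1 probe set on a linear scale, as the authors deposited it. Per the submitters' processing notes, MAS5 was used for pools 1 to 4, with its role not stated; no tool is named there for pool 5. The sources used here give no version or settings. RNA of littermates was pooled, amplified and labelled with biotin, per the labels' protocols.

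Groups came from the titles. Probe sets were named through the platform's annotation, with symbols brought up to date by gene identifier (GRCm38.p6). Probe sets that list several genes (691) or none (1555) represent no gene here, and 29 kept an older symbol. A gene was represented by the probe set with the highest mean log2 signal. Values under 1 were set to 1 before log2 was taken, with no further normalization. Spread was described for mean signals of at least 50. Only 1 group was described, so no test was made, and means are given with the SD over the 5 pools. Intensities have no counting depth, and the number of arrays limits the precision.

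The arrays and the 31 gene lists were chosen with earlier results of these data known. Genes named are the 20 of highest mean signal, the 20 of largest and 10 of smallest SD, in each list the 4 highest, the 3 of largest SD and the lowest, and cell type markers that complete a list. Genes outside this rule (Piwil1, Mki67, Cldn5, Lrat, Nid1 and Fos) were named after their values were seen. The targeted gene is not reported here. The calculations were tested on simulated data and run in Python 3.11.15 with numpy 2.4.6, pandas 2.3.3 and scipy 1.17.1.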

Additional observations from a re-analysis of the deposited data

Results flagged for a closer look

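In each result the pool with the largest gap to its neighbour was compared with the group's range. This was done for 190 of the genes named above, 23 lists and 5 array measures, 218 results in all. In 22 of them 1 pool stood far from the other 4, where chance gives about 1 in 20 groups, and many of the genes were named for their large or small spread. No explanation was weighed.

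Pool 1 was highest for Eef1a1 (3305), for Tpt1 (2919.8) and for Smtn (42.3, with the others at 30.3 to 32.8). It was lowest for the macrophage genes Lyz2 (72.5, with the others at 103.6 to 116.1) and Cd163 (2.9), and for Cox15 (60.4).

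Pool 2 was lowest for Eppin (199.5, with the others at 340.1 to 421.8), for Gpd1 (23.2, with the others at 52.6 to 71.7) and for Hspa1l (0.8). It was also lowest in the mean deviation of the list of glycolysis and lactate supply genes, at -0.10 on the log2 scale, with the others at 0.01 to 0.04.

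Pool 3 was highest for Mcm6 (607.8) and for Rxrg (2.3), and lowest for Ndn (305.0, with the others at 493.8 to 519.3) and Lsp1 (43.2). Pool 4 was highest for Eif4h (828.7), for Cyct (104.8, with the others at 79.8 to 82.4) and for Tie1 (4.6).

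Pool 5 was lowest for Hells, of the list of genes shared by germ cell stages (682.1, with the others at 849.0 to 898.9). It was also lowest for the meiotic gene Prdm9 (10.0, with the others at 27.0 to 33.9) and for Uba1y (613.6, with the others at 690.2 to 718.1). Galnt1 (379.8) and AY036118 (29.7, with the others at 261.5 to 359.0) were lowest there too. Cd163, Tie1, Hspa1l and Rxrg have mean signals under 20, where 60.78% of genes differ by 2-fold or more between pools.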

How the results depend on the processing

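No paired analysis was possible because only the control pools were described and no groups were compared. The number of genes at 100 or more was 4439 as reported and 3454 with the median over the probe sets of each gene. The median SD of log2 signal for probe sets, 0.121 as reported, was 0.108 with 16 added before log2, 0.136 for mean signals of at least 20, 0.109 for at least 100 and 0.198 with no filter. The number of probe sets differing by 2-fold or more, 113 as reported, was 61, 321, 52 and 5710 under these settings, in the same order, and ranged from 74 to 94 when each pool was left out. The mean correlation between pools, 0.984 as reported, was 0.985 with 16 added and 0.975 with no filter, and ranged from 0.982 to 0.984 when each pool was left out. With the median over probe sets, the median percentile rank was 61.59 for myoid cells, 45.06 for macrophages, 41.92 for endothelium, 46.11 and 83.76 for undifferentiated and differentiating spermatogonia, 91.48 for germ cells, 28.69 for pachytene spermatocytes and 15.63 for fat; the endothelial rank ranged from 38.33 to 39.17 when each pool was left out. The range over pools, when each pool was left out, was 0.13 to 0.31 for Sertoli, 0.19 to 0.35 for Leydig, 0.10 to 0.19 for cell cycle and 0.12 to 0.33 for extracellular matrix genes. The range of the Leydig list was 0.53 with the median over probe sets, a setting chosen after seeing the data. Quantile normalization moved no list's median rank by more than the spread between pools, but the range over pools of the ribosomal protein list was 0.04 under it, against 0.16 as reported. The order of pools was compared for 6 lists: the lowest pool was that reported under each setting that kept all pools, while quantile normalization moved the highest pool from 5 to 4 for the Leydig list and from 1 to 5 for the extracellular matrix list, and the median over probe sets also gave pool 4 as highest for the Leydig list. The cause of the changes was not tested, except that fewer or more genes enter when the minimum signal changes. With 5 pools, low signals and small differences cannot be resolved.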
